A study of Mus musculus with 6 samples.

Results

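The genes described here are those whose symbol begins with Kcn in a table of mouse isoforms, that is, the potassium channel subunits, their accessory proteins and a few noncoding RNAs named after them. The rule found 89 genes, of which 5 are noncoding RNAs. Of these, 88 had a gene-level value among the 27694 genes of the table, and the other, Kcnb2, was represented only by an isoform within an intron. RNA was measured in 6 untreated C57/Bl6 neural stem cell cultures, 3 labelled vimentin knockout (KO) and 3 labelled wild type (WT). All were grown in serum-free medium with B27, FGF-2 and EGF, and ribosomal RNA was removed from total RNA before strand-specific paired-end sequencing. The labels do not say how the knockout was made or whether each culture had its own animal. The p-values thus measure the spread between these libraries, which may be technical.

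Potassium channels let potassium ions leave or enter the cell along their gradient and set the resting potential. Pore-forming subunits fall into voltage-gated (Kv), inward-rectifying (Kir), two-pore (K2P) and calcium- or sodium-activated classes, and accessory subunits tune the gating or surface level of a pore. In the glial lineage, Kir4.1, encoded by Kcnj10, is the best known member and holds astrocytes at a negative potential while they take up potassium released by neurons. Neurons use a wider range of Kv channels to shape action potentials.

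Levels are given as FPKM, the fragments on a transcript divided by its length and by library size, summed over the exonic isoforms of a gene. A gene with a mean of at least 1 FPKM over the 6 libraries is called expressed here, and 21 members were, 2 of them noncoding RNAs. The targeted gene went against the labels: Vim was at 649.8, 731.8 and 624.5 FPKM in the libraries labelled KO, against 190.7, 178.7 and 186.2 FPKM in those labelled WT. The table names the WT columns NT, which were matched to the WT libraries by elimination, so directions below are those of the labels only. Depth was 28.4 to 32.5 M reads of 150 bases in the libraries labelled KO and 28.9 to 36.2 M in those labelled WT, so that 3 reads on an isoform of 2000 bases equal 0.0414 to 0.0529 FPKM. The library WT 2 stood apart, with 16.4% of its FPKM in isoforms outside the gene sums, where the remaining libraries had 3.99% to 5.49%. The 8 neural stem cell markers, 7 of them at 1 FPKM or more, summed to 842.8 to 912.6 FPKM in the libraries labelled KO and 529.7 to 741.7 FPKM in those labelled WT, with 1 called higher. Of all genes tested, 3.65% were called higher, by the test given below. Fabp7 was at 675 ± 22.3 FPKM in the libraries labelled KO and 480.4 ± 106 FPKM in those labelled WT, and Pax6 at 11.45 ± 1.52 and 11.7 ± 2.20 FPKM (SD, n = 3). Sox2 was listed at 0 in all 3 libraries labelled KO and in WT 2, and at 53.3 and 28.4 FPKM in WT 1 and WT 3. Prom1 was at or below 0.125 FPKM in each library.

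The pores share a sequence feature that is typical of the potassium channel family. The selectivity filter, the narrowest part of the pore, is built around a glycine, a tyrosine or phenylalanine and another glycine. This was searched on the coding strand, in frame, as the 4 codons NTN, GGN, TAN or TTN, and GGN, a loose pattern that other residues also match, in the longest GENCODE M21 coding sequence of each gene. All 15 expressed pore-forming members held them and none of the 4 expressed accessory members did, against 5.35% of 21562 genes with a coding sequence. The codons were set with the family known, so these counts describe the members and test nothing. The stretches below, on GRCm38 and in the coding direction, show the 12 matching bases in capitals with 9 bases on either side for the most abundant inward rectifier, the pair of expressed Kv4 genes, and the BK channel.
Kcnj10: cagaccaccATCGGCTATGGCttccgctac
Kcnd2: atgacaacaCTGGGGTATGGCgacatggta
Kcnd3: atgactacaCTGGGATATGGAgacatggtg
Kcnma1: atgtctacaGTGGGTTATGGGgacgtttat
The capitals begin at base 385 of the coding sequence in Kcnj10, 1111 in Kcnd2, 1102 in Kcnd3 and 1057 in Kcnma1.

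A few genes made up most of the potassium channel RNA. Kcnj10 alone held 36.3% of the summed mean FPKM of the 88 genes, Kcnj10 and Kcnip3 together 59.2%, and the 6 members with a mean of 10 FPKM or more 80.9%. The 21 expressed members held 94.1%. The summed level of all members was 299.3 ± 21.6 FPKM in the libraries labelled KO and 315.5 ± 23.1 FPKM in those labelled WT (SD, n = 3), so the total differed by less than the spread. Inward rectifiers summed to 105.8 ± 11.6 FPKM in the libraries labelled KO and 151.5 ± 19.2 FPKM in those labelled WT, and accessory subunits of voltage-gated channels to 95.1 ± 14.02 and 63.8 ± 3.48 FPKM. Kcnj10 was the largest part of the first of these sums and Kcnip3 of the second.

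**Figure D1:**
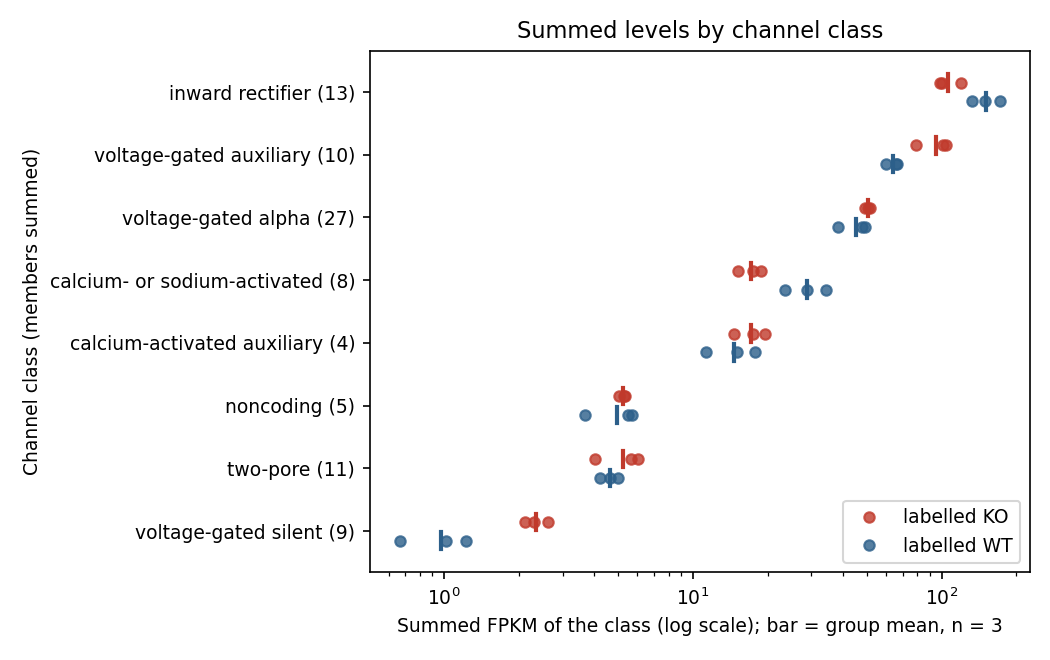
Summed FPKM of each channel class on a log axis, 1 point per library (red, labelled KO; blue, labelled WT) with the group mean as a bar (n = 3), and the number of members summed in brackets. Kcnrg, a regulator, is not shown. The inward rectifiers lie between 98.1 and 119 FPKM in the libraries labelled KO and between 133 and 171 FPKM in those labelled WT.

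The comparison of libraries labelled KO and WT asked which members differ when vimentin is targeted. Of the 21 expressed members, 3 fell, none rose and 18 did not pass (limma on log2(FPKM + 1), Benjamini-Hochberg adjusted p under 0.05 over all genes tested). The 3 were the SK2 channel gene Kcnn2, the Kv4.2 gene Kcnd2 and the Kir4.1 gene Kcnj10. This is 14.3% of the expressed members, against 6.9% of the 12080 genes tested (3.65% higher and 3.25% lower), and with so few members the 2 shares are not set against each other by a test. At an unadjusted p under 0.05 there were 5 members higher and 4 lower, where 12.7% of all genes tested were higher and 11.9% lower. Limma-voom on estimated reads called 3 members higher and 3 lower, and 5.52% of all genes higher and 3.68% lower. The groups did not overlap for 11 of the 21 (52.4%), 6 with the libraries labelled KO above and 5 below, against 33.3% of genes tested. The median log2 fold change of the 21 was -0.15, and that of all genes tested was -0.02. Of the 21, 15 had means between 1 and 5 FPKM, and a member that did not pass is not shown to be unchanged.

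**Figure D2:**
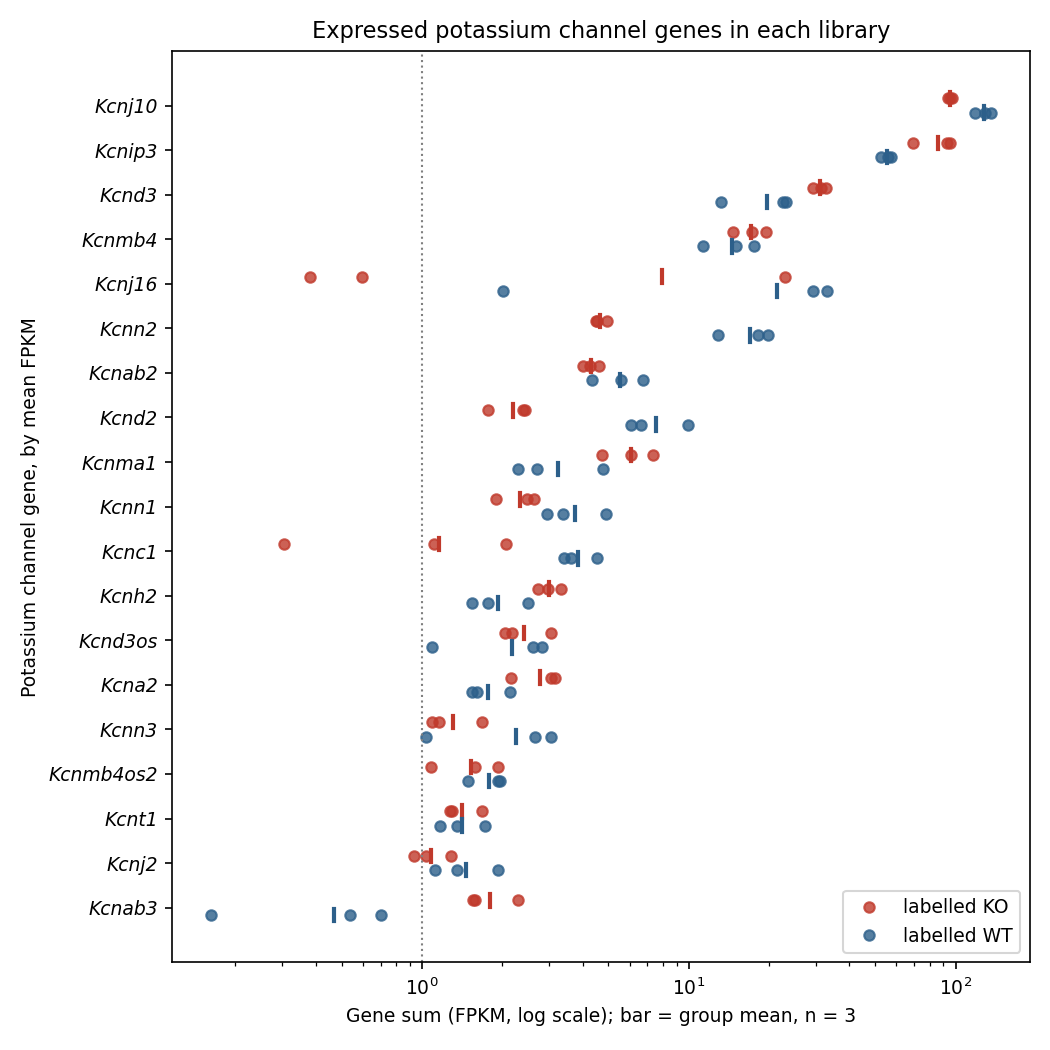
FPKM of 19 expressed members on a log axis, ordered by mean, 1 point per library (red, labelled KO; blue, labelled WT) with the group mean as a bar (n = 3) and a dotted line at 1 FPKM. Kcnn2 and Kcnd2 are separated between the groups, while Kcnj16 is split within both.

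**Figure D3:**
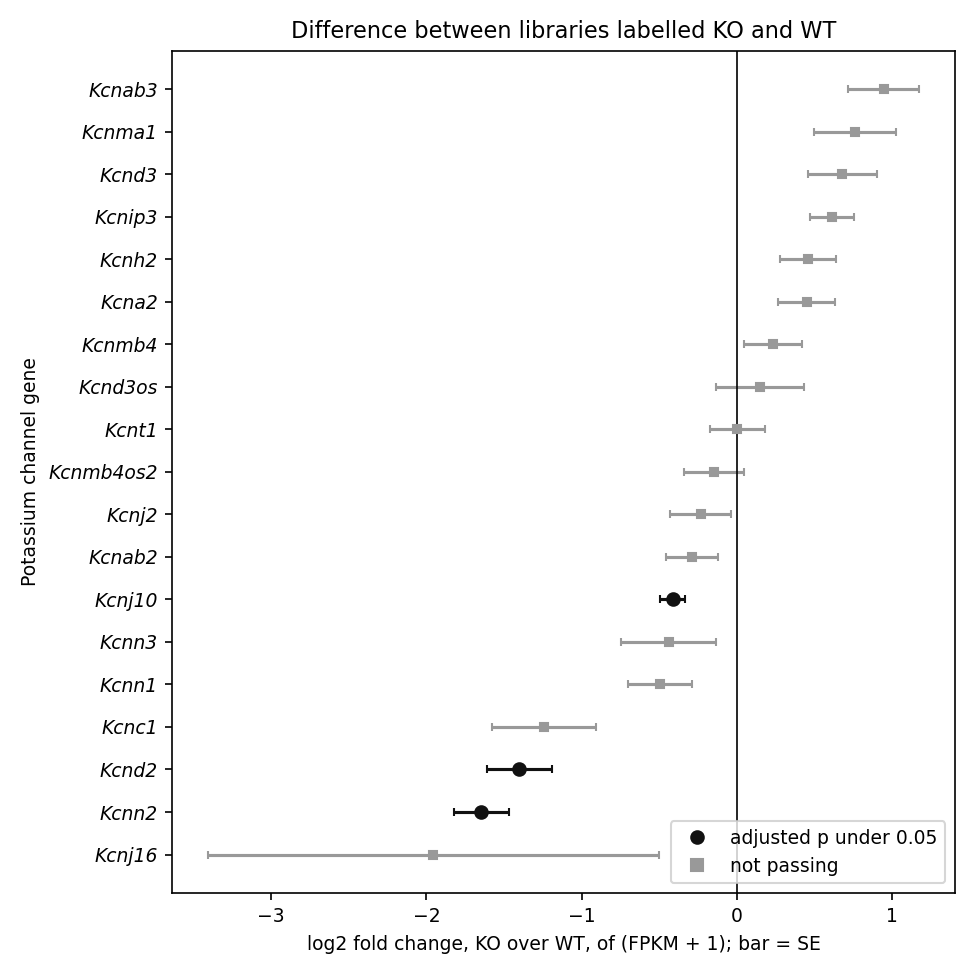
Log2 fold change of (FPKM + 1), KO over WT, for the same 19 expressed members, with its SE as a bar. Black circles mark Kcnn2, Kcnd2 and Kcnj10, which passed, and grey squares the 16 that did not. Values run from -1.96 for Kcnj16 to 0.94 for Kcnab3.

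Among the inward rectifiers, Kcnj10 was at 95.6, 97.1 and 93.9 FPKM in the libraries labelled KO, against 118, 136 and 129 FPKM in those labelled WT. All 3 values of the libraries labelled KO lay below the lowest of those labelled WT. The log2 fold change was lower than 0, at -0.41, with an SE of 0.08 (adjusted p = 0.0407, limma), and the mean was 0.748 of that in the libraries labelled WT. Fewer cells of a type and less RNA per cell cannot be told apart in such bulk samples. Leaving out any 1 library ended the call (adjusted p between 0.0518, with WT 1 left out, and 0.128, with KO 2 or KO 3 left out, limma), although the log2 fold change stayed between -0.47 and -0.37. Kcnj10 spans 172341210 to 172374085 of chromosome 1 (GRCm38, plus strand). Its 2-exon isoform ENSMUST00000056136 held all but 8.25 FPKM in KO 3 and all but 0.446 FPKM or less in each other library.

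Kcnj16 encodes Kir5.1, which conducts together with Kir4.1 and makes the channel sensitive to pH. It was at 0.382, 0.595 and 22.9 FPKM in the libraries labelled KO, against 29.1, 32.8 and 2.02 FPKM in those labelled WT. Both groups held high and low libraries. The groups overlapped between 2.02 FPKM (WT 3) and 22.9 FPKM (KO 3), and the gene did not pass (log2 fold change -1.96, SE 1.45, adjusted p = 0.466, limma). The high libraries also differed in isoform: ENSMUST00000180023, which starts at 110968033 on the plus strand of chromosome 11, held 20.2 FPKM in KO 3 and 28.6 FPKM in WT 2. ENSMUST00000106635, which starts at 110997487, held 28.6 FPKM in WT 1. Both isoforms were at 0 or, for ENSMUST00000106635 in KO 1, at 2e-06 FPKM in KO 1, KO 2 and WT 3, where the estimated reads of the gene numbered 6, 10 and 113, against 2635, 3080 and 3413 in KO 3, WT 1 and WT 2. A listed 0 in a table without counts can be a failed estimate, so the level of Kcnj16 is uncertain in those 3 libraries.

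Kcnj2, the gene of the classic inward rectifier Kir2.1, was close to the threshold, at 1.08 ± 0.178 FPKM in the libraries labelled KO and 1.47 ± 0.414 FPKM in those labelled WT (SD, n = 3, adjusted p = 0.515, limma). The other 10 inward rectifier genes with a gene sum were under 1 FPKM. They include Kcnj8, which with Abcc9 forms the ATP-sensitive channel of vascular mural cells, at 0.0408 FPKM in the libraries labelled KO and listed at 0 in those labelled WT.

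The Kv4 family carries the fast, transient A-type current, and its channels assemble with KChIP calcium sensors and dipeptidyl-peptidase-like proteins. The Kv4 pore genes Kcnd2 and Kcnd3 and 1 KChIP gene were among the expressed members. The fold changes of these pore genes had opposite signs, Kcnd2 passed and Kcnd3 did not, and the difference between the 2 genes was not tested. Kcnd2 (Kv4.2) was at 2.43, 2.40 and 1.76 FPKM in the libraries labelled KO, against 6.62, 9.96 and 6.10 FPKM in those labelled WT, with no overlap. Its log2 fold change was -1.40, with an SE of 0.21 (adjusted p = 0.0196, limma), and the mean was 0.291 of that in the libraries labelled WT. Estimated reads numbered 296 to 378 in the libraries labelled KO and 987 to 1593 in those labelled WT. The call was lost without KO 1, KO 2, KO 3 or WT 1 (adjusted p = 0.0688, 0.0717, 0.0741 and 0.0531, limma) and held without WT 2 or WT 3 (0.0268 and 0.0399). It was also lost with every class of isoform summed and with the replicate block (adjusted p = 0.0707 and 0.0927, limma). With the highest isoform only it was lost too (adjusted p = 0.0819, limma). Kcnd2 has 1 exonic isoform, so its own values were unchanged there and only the other genes of that fit differed. Kcnd2 spans 21215503 to 21729805 of chromosome 6 on the plus strand and rests on 1 isoform. The 604 tested genes of chromosome 6 had a median log2 fold change of 0.27, against -0.03 for the other 11476. Whether this bears on Kcnd2 was not tested.

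Kcnd3 (Kv4.3) was at 31.4, 32.7 and 29.2 FPKM in the libraries labelled KO, against 13.2, 22.6 and 23.2 FPKM in those labelled WT. Every library labelled KO lay above every library labelled WT, but the gene did not pass (log2 fold change 0.68, SE 0.22, adjusted p = 0.135, limma), and WT 1 was well below its companions. Most of its FPKM came from an assembled isoform of 8 exons, at 19.8 to 27.8 FPKM in the libraries labelled KO and 7.81 to 21.02 FPKM in those labelled WT. Kcnd3os, a noncoding RNA on the opposite strand at the start of Kcnd3, was at 2.42 ± 0.538 and 2.17 ± 0.946 FPKM in the libraries labelled KO and WT (SD, n = 3). Whether the assembly used strand is not stated, so reads of an antisense pair may be shared.

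Kcnip3 encodes KChIP3, also known as calsenilin or DREAM, which binds Kv4 channels at the membrane and can act as a calcium-regulated repressor of transcription. It was the second most abundant member, at 95.4, 69.2 and 92.6 FPKM in the libraries labelled KO, against 52.6, 57.3 and 55.9 FPKM in those labelled WT. The groups did not overlap, and KO 2 was the lowest of the libraries labelled KO. Its log2 fold change of 0.61 did not pass (SE 0.14, adjusted p = 0.0604, limma). It passed in 1 of the 6 fits without 1 library, that without KO 2 (log2 fold change 0.76, adjusted p = 0.0359, limma). The remaining fits did not call it, with adjusted p up to 0.17 (limma) and a log2 fold change down to 0.53. The main isoform ENSMUST00000103215 was at 68.2, 39.7 and 68.1 FPKM in the libraries labelled KO, against 38.7, 32.1 and 20.0 FPKM in those labelled WT. An assembled isoform of 9 exons went the other way, at 0, 1.01 and 0 FPKM in the libraries labelled KO. In those labelled WT it was at 1.04, 21.6 and 18.2 FPKM, so single isoforms do not give the change of the gene. The other KChIP genes, Kcnip1, Kcnip2 and Kcnip4, had means of 0.44, 0.541 and 0.537 FPKM, and the Kv4.1 gene Kcnd1 had 0.455 FPKM.

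SK channels open when calcium binds the calmodulin attached to them and produce a slow hyperpolarisation. Kcnn2 (SK2) was at 4.93, 4.49 and 4.54 FPKM in the libraries labelled KO, against 12.8, 19.8 and 18.2 FPKM in those labelled WT, and the 2 groups were far apart. Kcnn2 fell by a log2 difference of 1.65, with an SE of 0.18 (adjusted p = 0.00792, limma), and its mean was 0.275 of that in the libraries labelled WT. This was the member with the smallest p, and its call held in each of the 6 fits without 1 library (adjusted p 0.00911 to 0.042, limma). It was lost with the highest isoform only and with the replicate block (adjusted p = 0.0897 and 0.0927, limma). Most of its RNA came from isoforms that begin within the gene. ENSMUST00000211323, of 8 exons, was at 1.42, 3.02 and 3.19 FPKM in the libraries labelled KO, against 7.64, 11.8 and 13.3 FPKM in those labelled WT. An isoform of 11 exons that begins upstream, ENSMUST00000183850, was at 1.38, 0.594 and 0 FPKM in the libraries labelled KO and listed at 0 in all 3 labelled WT. Kcnn2 spans 45268860 to 45686024 of chromosome 18 on the plus strand.

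The other SK genes had values in the same direction that did not pass. Kcnn1 (SK1) was at 2.33 ± 0.383 FPKM in the libraries labelled KO and 3.74 ± 1.03 FPKM in those labelled WT (SD, n = 3, adjusted p = 0.21, limma), and its groups did not overlap. Kcnn3 (SK3) was at 1.16, 1.67 and 1.09 FPKM in the libraries labelled KO and 1.04, 3.05 and 2.65 FPKM in those labelled WT, with WT 1 as the lowest of all. Kcnn4, the intermediate-conductance channel of blood and epithelial cells, had a mean of 0.539 FPKM.

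The BK channel opens with both calcium and depolarisation, and its beta 4 subunit, encoded by Kcnmb4, is the brain-enriched form that slows gating. Kcnmb4 was the more abundant, at 17.1 ± 2.43 FPKM in the libraries labelled KO and 14.6 ± 3.13 FPKM in those labelled WT (SD, n = 3, adjusted p = 0.506, limma), with overlapping groups. The pore gene Kcnma1 was at 6.07, 7.37 and 4.75 FPKM in the libraries labelled KO, against 2.71, 4.75 and 2.29 FPKM in those labelled WT. Its groups touched at KO 3 and WT 2, and it did not pass (log2 fold change 0.76, SE 0.26, adjusted p = 0.152, limma). ENSMUST00000190044 was the highest of its isoforms in KO 1, at 4.29 FPKM, and was listed at 0 in the other 5 libraries. The sodium-activated channel gene Kcnt1 was nearly level, at 1.42 ± 0.233 FPKM in the libraries labelled KO and 1.42 ± 0.283 FPKM in those labelled WT (SD, n = 3, adjusted p = 0.997, limma). Kcnmb4os2, a noncoding RNA that begins head to head with Kcnmb4, was at 1.53 ± 0.426 and 1.79 ± 0.263 FPKM in the libraries labelled KO and WT.

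The Kv3 channels, which close quickly and allow fast firing in neurons, include the product of Kcnc1 (Kv3.1). It was at 1.11, 0.304 and 2.07 FPKM in the libraries labelled KO, against 3.40, 3.62 and 4.52 FPKM in those labelled WT, without overlap (log2 fold change -1.24, SE 0.33, adjusted p = 0.087, limma). Kcnc1 also held RNA outside its exons. In the same gene, 7 unspliced assembled isoforms lay within the intron of the 2-exon isoform ENSMUST00000025202, between 46398475 and 46426157 on chromosome 7. Together they stood at 5.22, 6.94 and 9.43 FPKM in the libraries labelled KO, against 0.925, 1.00 and 1.04 FPKM in those labelled WT. When every class of isoform was summed, the log2 fold change of Kcnc1 turned to 0.65 (adjusted p = 0.213, limma).

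**Figure D4:**
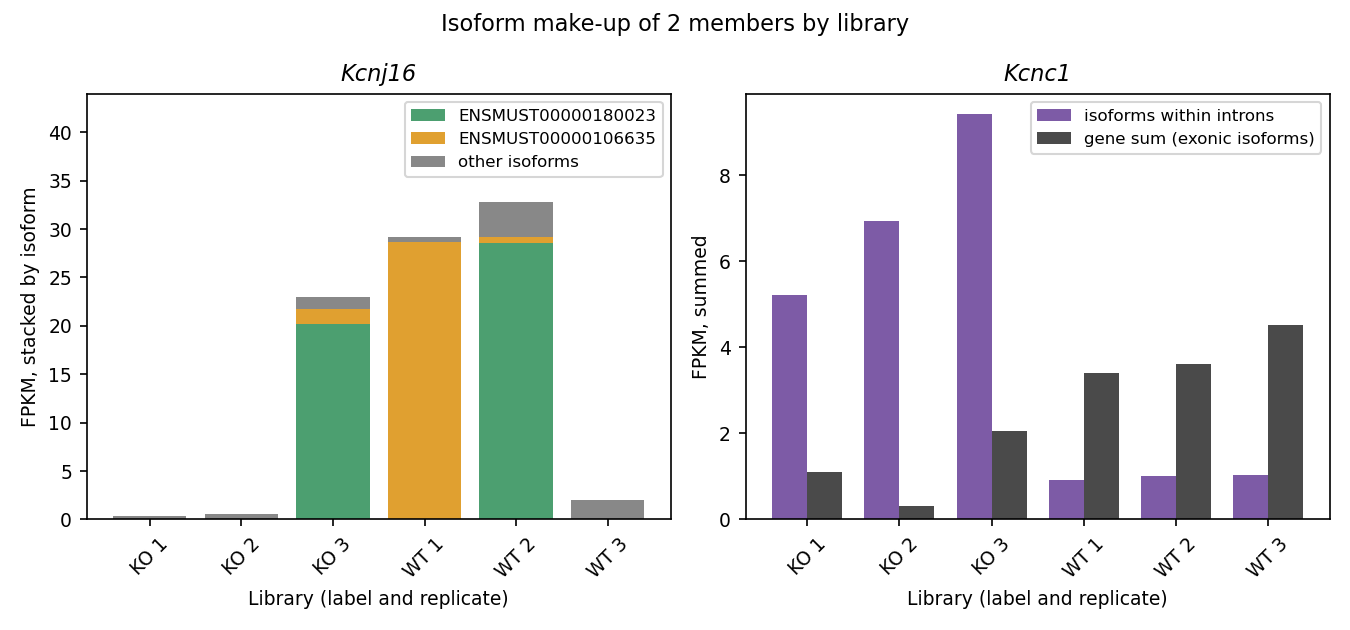
Left, FPKM of Kcnj16 by library, stacked by isoform. Right, FPKM of the isoforms within Kcnc1 introns (purple) beside the Kcnc1 gene sum (dark grey). Kcnj16 is high in KO 3, WT 1 and WT 2 only, and the intronic isoforms of Kcnc1 are at 5.22 to 9.43 FPKM in the libraries labelled KO and at 1.04 FPKM or less in those labelled WT.

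Other expressed voltage-gated genes did not pass. Kcna2 (Kv1.2, a delayed rectifier of axons) was at 2.16, 3.04 and 3.14 FPKM in the libraries labelled KO, against 1.61, 1.55 and 2.14 FPKM in those labelled WT (adjusted p = 0.207, limma), and its log2 fold change of 0.45 turned to -0.02 with reference transcripts only. Kcnh2, which encodes the ERG channel known from heart repolarisation, was at 3.00 ± 0.30 and 1.93 ± 0.502 FPKM in the libraries labelled KO and WT (SD, n = 3, adjusted p = 0.189, limma). Both genes had all libraries labelled KO above all labelled WT.

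The cytosolic Kv beta subunits differed in pattern. Kcnab3 was at 1.55, 1.58 and 2.29 FPKM in the libraries labelled KO, against 0.702, 0.163 and 0.536 FPKM in those labelled WT. The groups did not overlap and its log2 fold change of 0.94, with an SE of 0.23, was the highest of the 21 but did not pass (adjusted p = 0.0685, limma). Of its 3 isoforms, 2 were listed at 0 in all libraries labelled WT. Kcnab2 was at 4.29 ± 0.29 FPKM in the libraries labelled KO and 5.54 ± 1.20 FPKM in those labelled WT (SD, n = 3, adjusted p = 0.356, limma), and its log2 fold change of -0.29 turned to 0.79 with the highest isoform only.

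The other 67 members with a gene sum were under 1 FPKM, 30 of them under 0.1 FPKM, and 32 were listed at 0 in at least 1 library. All 11 two-pore genes and all 9 silent Kv subunits, which form no channel alone and modify other Kv channels, were in this group. Just inside the threshold were Kcnt1, Kcnj2 and Kcnab3, at means of 1.42, 1.27 and 1.14 FPKM, and just outside were Kcnk5, Kcnq3 and Kcnk4, at 0.964, 0.964 and 0.936 FPKM. Of the 67, 14 had groups that did not overlap (20.9%), 9 with the libraries labelled KO above and 5 below, against 10.6% of the 15614 genes above 0 and under 1 FPKM. The shares were not matched for level, and some of the 14 rest on few estimated reads. Kcnj8, for example, had 4.03, 1.80 and 3.63 in the libraries labelled KO and 0 in those labelled WT.

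Kcnk5 (TASK-2, an alkaline-activated background channel) was at 1.64, 1.66 and 1.62 FPKM in the libraries labelled KO, against 0.393, 0.173 and 0.302 FPKM in those labelled WT. Its 3 values in the libraries labelled KO were nearly equal, and estimated reads numbered 157 to 177, against 18 to 38 in those labelled WT. It was not part of the test of expressed genes. In the fit without a filter, which called 2.11% of 27694 genes (1.13% higher and 0.975% lower), Kcnk5 rose, with a log2 fold change of 1.04 and an SE of 0.16 (adjusted p = 0.042, limma). The fits without 1 library kept the filter of 1 FPKM, which Kcnk5 reached only when a library labelled WT was left out. It did not pass without WT 1 or WT 3 (adjusted p = 0.0534 and 0.0642, limma), and it was not tested without a library labelled KO. Those fits thus cannot show whether the call without a filter holds. With every class of isoform summed, also with the filter, the log2 fold change was 0.40 (adjusted p = 0.698, limma). Kcnq3, a subunit of the M-current channel, was at 0.529 ± 0.0547 and 1.40 ± 0.27 FPKM in the libraries labelled KO and WT (SD, n = 3, adjusted p = 0.163 without a filter, limma), also without overlap. Kcnk4 (TRAAK, a mechanically gated background channel) was at 0.394, 0.60 and 1.71 FPKM in the libraries labelled KO and 0.678, 1.11 and 1.12 FPKM in those labelled WT. Kcng4, a silent subunit chosen after its values were seen, was at 0.75, 0.71 and 0.988 FPKM in the libraries labelled KO, against 0.146, 0.0137 and 0.248 FPKM in those labelled WT.

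Promoters are shown for the 2 called genes whose sequence is printed here and for Kcnk5, which differed in the other direction. Of the 89 members, 64 had an entry in the RefSeq promoter table (GRCm38.p6). The 250 bases before the annotated start were searched on both strands for the GC box GGGCGG, the TATA box TATAAA and the CCAAT box CCAAT, and matches are in capitals.
Kcnj10, chr1:172340960-172341209, plus strand: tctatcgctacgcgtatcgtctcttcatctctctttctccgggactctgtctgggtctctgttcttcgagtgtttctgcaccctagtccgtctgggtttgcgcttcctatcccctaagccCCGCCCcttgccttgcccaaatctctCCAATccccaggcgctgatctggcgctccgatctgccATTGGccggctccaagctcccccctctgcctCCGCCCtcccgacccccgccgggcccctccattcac
Kcnd2, chr6:21215096-21215345, plus strand: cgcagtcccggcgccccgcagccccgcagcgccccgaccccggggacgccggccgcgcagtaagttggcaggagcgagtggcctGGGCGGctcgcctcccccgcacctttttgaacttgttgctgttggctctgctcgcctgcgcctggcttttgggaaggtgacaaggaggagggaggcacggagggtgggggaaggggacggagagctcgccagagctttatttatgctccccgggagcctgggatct
Kcnk5, chr14:20181783-20182032, minus strand: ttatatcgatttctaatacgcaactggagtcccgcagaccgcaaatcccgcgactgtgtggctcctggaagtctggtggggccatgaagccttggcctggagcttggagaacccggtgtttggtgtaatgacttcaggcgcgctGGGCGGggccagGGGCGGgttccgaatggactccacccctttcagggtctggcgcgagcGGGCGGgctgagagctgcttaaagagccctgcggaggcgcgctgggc
Kcnj10 held 2 GC boxes and 2 CCAAT boxes, Kcnd2 held 1 GC box and Kcnk5 held 3, with no TATA box in these windows. The GC box occurred in 32.7% of 32851 promoter windows of the same length, the CCAAT box in 33.85% and the TATA box in 12.4%. CpG dinucleotides numbered 17 in Kcnj10, 22 in Kcnd2 and 19 in Kcnk5, against a median of 6 and an upper quartile of 16 over all windows. All 3 windows, chosen after the values were seen, lay above that quartile.

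Proteins that work with these channels but carry other symbols were counted in the same fit. Of 22 listed partners, 9 were expressed and tested, with a median log2 fold change of 0.05. The test called 2 higher, left 7 uncalled and called none lower in limma, with 1 lower at an unadjusted p under 0.05 and 3 called higher and 1 lower by limma-voom. Over all genes tested, limma called 3.65% higher and 3.25% lower, with 11.9% lower at an unadjusted p under 0.05. Limma-voom called 5.52% of all genes higher and 3.68% lower. Ank3, the ankyrin that gathers Kv7 and sodium channels at the axon initial segment, was at 15.3, 11.8 and 11.7 FPKM in the libraries labelled KO, against 3.38, 3.29 and 3.14 FPKM in those labelled WT. Ank3 rose, with a log2 fold change of 1.70 and an SE of 0.14 (adjusted p = 0.00398, limma), a call lost with reference transcripts only, with the highest isoform only and with the replicate block (adjusted p = 0.228, 0.107 and 0.0672, limma). Dlg4, the scaffold PSD-95, which binds Kv1 and Kir channels, was at 22.7 ± 0.932 and 14.4 ± 2.26 FPKM in the libraries labelled KO and WT (SD, n = 3, log2 fold change 0.63, adjusted p = 0.0428, limma). Its call held without WT 2 and was lost without any other library (adjusted p 0.0936 to 0.138, limma). The Kv4 partner Dpp6 was at or under 0.069 FPKM in each library, and the KATP subunits Abcc8 and Abcc9 were under 1 FPKM in each.

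Of 28 listed genes of potassium transport and buffering, 22 were tested: 2 rose, 3 fell and 17 did not pass, with a median log2 fold change of 0.01, where 3.65% of all genes tested rose and 3.25% fell. At an unadjusted p under 0.05 there were 5 higher and 4 lower, where 12.7% of all genes tested were higher and 11.9% lower. Limma-voom called 4 higher and 1 lower, a different balance, and it called 5.52% of all genes higher and 3.68% lower. The water channel Aqp4, which lies beside Kir4.1 at astrocyte endfeet, fell to 2.50 ± 0.266 FPKM in the libraries labelled KO, against 10.9 ± 0.348 FPKM in those labelled WT (SD, n = 3, log2 fold change -1.76, adjusted p = 0.00239, limma). That call was lost with reference transcripts only, with the highest isoform only and with the replicate block (adjusted p = 0.176, 0.251 and 0.0653, limma). For the 2 described next, leaving out any 1 library ended the call. The potassium-chloride cotransporter Slc12a4 was at 52.5 ± 2.77 and 38.65 ± 2.46 FPKM in the libraries labelled KO and WT (SD, n = 3, adjusted p = 0.0433, and 0.0673 to 0.142 in those fits, limma), and its direction turned with reference transcripts only (log2 fold change -0.10). The pump regulator Fxyd6 was at 3.15 ± 0.84 and 7.46 ± 1.32 FPKM in the libraries labelled KO and WT (adjusted p = 0.0461, and 0.0508 to 0.121, limma).

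Of 16 genes listed as other channels, 8 were tested. The list was drawn up for potassium-permeable channels, but its tested genes include Tmem206, which encodes a chloride channel. None of the 8 passed in limma, where 6.9% of all genes tested did. At an unadjusted p under 0.05, 0 were higher and 1 lower, against 12.7% and 11.9% of all genes tested. Limma-voom called none, against 5.52% of all genes higher and 3.68% lower. With so few genes the shares are not set against each other by a test. The median log2 fold change of the 8 was -0.24, and that of all genes tested was -0.02. The values with the smallest p were those of Trpm5, at 3.10 ± 0.666 and 5.22 ± 1.38 FPKM in the libraries labelled KO and WT, and of Tmem38a, a potassium-permeable channel of the endoplasmic reticulum, at 15.9 ± 3.27 and 25.8 ± 8.79 FPKM (SD, n = 3, adjusted p = 0.173 and 0.258, limma).

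Markers of glial cells differed between the groups in both directions. Beside the counts that follow, limma called 3.65% of all genes tested higher and 3.25% lower. Of 9 astrocyte markers, 8 were at 1 FPKM or more, and their sum was 851 to 929 FPKM in the libraries labelled KO and 646 to 1140 FPKM in those labelled WT, with 1 called higher (Aldh1l1) and 3 lower (Gfap, Aqp4 and Slc6a11). Aldoc, a large part of that sum, was listed at 6.40 FPKM in WT 1, against 324 and 488 FPKM in WT 2 and WT 3. In the libraries labelled KO it was at 350, 291 and 339 FPKM. Gjb6 was listed at 0 in each library but WT 2. Gfap fell to 27.0 ± 2.58 FPKM in the libraries labelled KO, against 77.8 ± 2.56 FPKM in those labelled WT (SD, n = 3). Aldh1l1 rose to 68.6 ± 0.269 FPKM in the libraries labelled KO, against 2.77 ± 1.465 FPKM in those labelled WT. The 6 oligodendrocyte precursor markers summed to 337 to 390 FPKM in the libraries labelled KO and 513.5 to 578.5 FPKM in those labelled WT, with 1 called higher and 2 lower. The 4 oligodendrocyte markers in the table summed to 45.1 to 49.9 and 91.7 to 94.7 FPKM in the libraries labelled KO and WT, of which Cnp was called lower. The 10 neuronal markers in the table summed to 94.1 to 141 FPKM in the libraries labelled KO and 70.7 to 182 FPKM in those labelled WT, mostly Map2, none was called in limma, and Rbfox3 was at 0.176 and 0.152 FPKM. Microglial markers summed to at most 1.45 FPKM in the libraries labelled KO and 4.44 FPKM in those labelled WT, and endothelial and mural markers to at most 0.635 and 0.422 FPKM. The part of these cell types in the channel values was not tested.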

How the data were processed

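The authors deposited 1 isoform table with FPKM and, as signal, the mean coverage of each isoform in 6 libraries. StringTie, TopHat2, Bowtie2, cutadapt and FastQC are listed, with no versions, per the submitters' processing notes. No genome build is stated there. Of reference isoforms found in GENCODE M21 (GRCm38), 95.9% had identical coordinates, and 92.3% of those of members. The NT columns were matched to the WT libraries by elimination and by number (0 columns unused). FPKM was summed per symbol over reference and exon-overlapping assembled isoforms (95506 of 125793), which left out isoforms within introns, between genes, antisense or past gene ends. This used 224 of 352 isoforms of members. Coverage divided by FPKM was constant within a library and gave the aligned bases. Estimated reads are coverage times length over 150.

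Genes with a mean of at least 1 FPKM (12080) were tested with limma 3.58.1 in R 4.3.3 on log2(FPKM + 1), which understates the change of low genes, with a mean-variance trend and KO against WT as the only term. Tables used Python 3.11.15 and pandas 2.3.3. The members, lists and tests were chosen with earlier results of these data known. Named genes were the expressed members, the 3 just below 1 FPKM, members with a group mean of at least 1 FPKM, up to 4 called genes of each list (or the 2 with the smallest p) and Vim. Kcnj8, Kcng4, other members under 1 FPKM, untested partners, cell markers and the genes whose sequences are printed were named outside this rule, after their values were seen, and the filter codons were set with the family known. Some genes that the rule names are counted but not reported here. The fit was tested on simulated data. Alternatives were pseudocounts of 0.1 and 5, other filters, scalings and isoform sums, no trend, a replicate block, leaving out chromosome 6 and leaving out each library. Limma-voom on estimated reads was added after seeing the data.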

Additional observations from a re-analysis of the deposited data

Results flagged for a closer look

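RNA within the introns of Kcnc1 was not part of the gene sums and was higher in the libraries labelled KO. The 7 intronic isoforms summed to 7.20 ± 2.12 FPKM in the libraries labelled KO and 0.99 ± 0.0596 FPKM in those labelled WT (SD, n = 3), a 7.27-fold difference, and each of the 7 had all libraries labelled KO above all labelled WT. They were singled out because the libraries labelled KO lay above those labelled WT and had a mean of at least 1 FPKM, so no test is given. Intronic isoforms with the libraries labelled KO below were not flagged by this rule. They cover 17644 bases of an intron of 29098 bases, overlap no annotated Kcnc1 exon, and no other GENCODE M21 gene lies in the stretch. Their strand is not given in the table. Of the 35 members with intronic isoforms, 1 (Kcnc1) had the libraries labelled KO above those labelled WT, and 2 (Kcnab1 and Kcnq3) had them below. The matching share over the intronic isoforms of all genes was not computed, so these counts do not set Kcnc1 or the members apart. Of the 35, 25 were highest in WT 2, where the intronic isoforms of members summed to 151 FPKM. The other 5 libraries had 24.8 to 45.6 FPKM. The Kcnc1 intronic sum in WT 2 was 1.00 FPKM.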

How the results depend on the processing

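Against 833 genes and 3 members called, the replicate block gave 15 genes and 0 members (limma, 8 members at an unadjusted p under 0.05), reference transcripts only 235 genes, every class code 542 genes and 1 member, and the highest isoform only 128 genes and 0 members (limma, 5 members at an unadjusted p under 0.05). Limma-voom called 1111 genes and 6 members, Kcnh2, Kcnip3 and Kcnma1 beside the 3. Leaving out 1 library gave 281 to 768 genes, 1 to 3 members called and 21 to 23 expressed. A threshold of 0.5 FPKM gave 36 expressed members and every class code 38, against 21. Slc12a4 reversed to -0.10 with reference transcripts only. Members uncalled in both fits that turned sign included Kcna2 with reference transcripts only, Kcnab2 with the highest isoform only, Kcnc1 with every class code, and Kcnd3os, Kcnmb4os2 and Kcnt1 in several. The cause of each was not tested. Same-numbered KO and WT libraries had correlations of 0.0119, -0.00306 and 0.065 between their deviations from the group means, so the block's numbers do not pair the libraries. Of the values of the 21 members under alternatives, 351 kept their side of the threshold or were uncalled both times, 21 lost a call and 6 gained one. No called member changed direction, and Kcnn2 lost its call in 2 of 19 alternatives, Kcnd2 in 7 of 17 and Kcnj10 in 12 of 19. Depth limits members under 0.1 FPKM.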
